A study of Mus musculus with 4 samples.

Results

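Autosomal summits of TOP2B cleavage complexes that lay in local clusters are described here. A summit, the highest point of a peak, was counted as clustered when at least 2 other summits lay within 10 kb on the same chromosome. This held for 2396 of 35308 autosomal summits (6.79%), out of 35539 peaks in all. They were selected on summit positions, the measured values behind every distance and count of neighbours given here. A further 7 entries met the rule within an rRNA repeat on chromosome 17 and were set apart. The complexes were mapped in cultured cortical neurons of wild-type embryonic day 16 Swiss-Webster mice, treated with 50 µM etoposide for 30 min. All 4 libraries carried this treatment, 2 of TOP2B immunoprecipitation (ChIP) and 2 of input DNA, so no untreated group exists. The labels do not say whether the libraries came from separate cultures. The authors' list is labelled as pooled, so no value has a standard deviation or an n, and expression markers of neurons cannot be read from it. Coordinates are those of GRCm38 and are 1-based.

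TOP2B is the type II topoisomerase of postmitotic neurons. It cuts both strands of a DNA duplex, passes another duplex through the gap and religates the cut, which relieves the supercoils and tangles that arise during transcription and chromatin folding. While the cut is open the enzyme is covalently bound to the DNA ends, and this intermediate is the cleavage complex. Etoposide blocks religation, so that complexes accumulate where the enzyme was acting.

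The 2396 clustered summits fell into 966 local clusters, a cluster being a run of summits each no more than 10 kb from the next that holds at least 1 clustered summit. The runs held 3262 summits, since 866 summits at their edges had only 1 neighbour within 10 kb. Of the clusters, 721 (74.6%) had 3 summits, 169 had 4, 53 had 5, 10 had 6, 7 had 7, 5 had 8 and 1 had 9. The median span from the lowest to the highest summit was 10.66 kb (quartiles 7.55 and 13.98), with a range of 1.17 to 52.38 kb. Neighbouring summits of a cluster lay a median of 4501 bp apart (quartiles 2197 and 7202), and 203 of 2296 such gaps (8.84%) were under 1 kb. The shortest was 224 bp. The rule fixes these distances only at their upper limit.

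**Figure D1:**
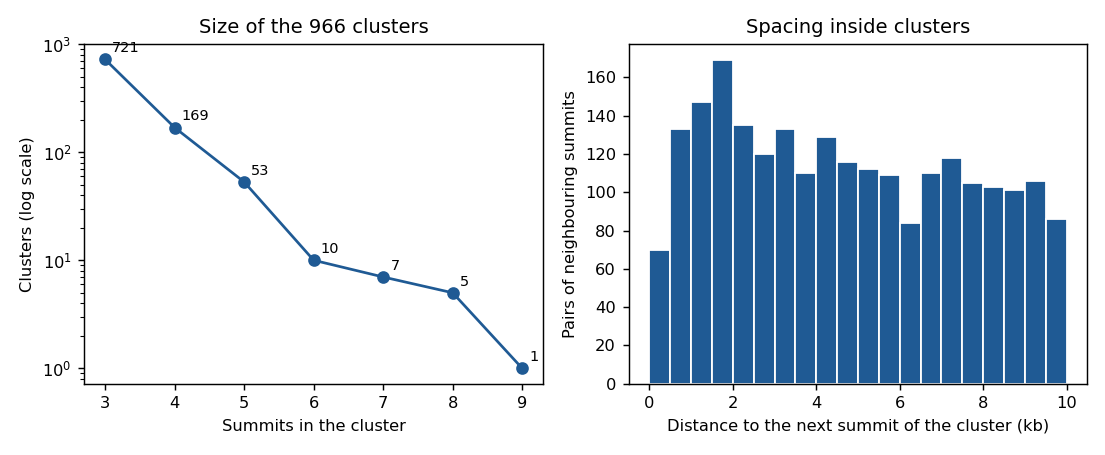
Left, number of clusters (log scale) by the number of summits they hold; right, number of pairs of neighbouring summits by their distance in kb, in bins of 0.5 kb. Clusters of 3 summits number 721 and the largest holds 9, and distances cover the whole range up to the 10 kb that defines a cluster.

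Promoters are shown because they are the only sequence at these clusters that could be read here. A clustered summit lay in 7 promoter windows of protein-coding genes, each from 250 bases before to 50 after a transcript start. Counted by summit, and not limited to these 7 windows, 13 clustered summits lay in a promoter window. That is 0.543% (95% Wilson interval 0.317 to 0.926), close to the 0.562% of the other autosomal summits (0.487 to 0.649). Promoter position thus did not set clustered summits apart. Of the 7 windows, 3 are printed, chosen after their values were seen. Gfap encodes the intermediate filament protein of astrocytes, Csrnp1 a nuclear protein, and Tbxa2r the thromboxane A2 receptor. The other 4 belong to Rps6ka1, Myh14, Il18bp and Pnpla2. The remaining 3 sequences follow the rule for named sequences, which took the named clusters with most summits at gene starts. That number was only 1 in each, as in the run that holds Tbxa2r. These sequences belong to Arhgap45, a GTPase-activating protein gene, Hpn, which encodes the serine protease hepsin, and the uncharacterised gene 1600014C10Rik. All are RefSeq sequence of GRCm38.p6, 5′ to 3′ on the gene's strand. Capitals mark a GC box, and none of the other motifs searched was present in these 6 windows.
Gfap (chr11:102897151-102897450, minus strand): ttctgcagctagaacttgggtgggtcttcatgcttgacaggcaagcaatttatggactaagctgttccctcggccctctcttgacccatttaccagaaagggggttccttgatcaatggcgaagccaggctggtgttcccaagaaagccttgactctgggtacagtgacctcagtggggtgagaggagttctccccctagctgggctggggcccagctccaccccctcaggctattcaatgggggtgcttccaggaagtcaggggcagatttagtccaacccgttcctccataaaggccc
Csrnp1 (chr9:119984394-119984693, minus strand): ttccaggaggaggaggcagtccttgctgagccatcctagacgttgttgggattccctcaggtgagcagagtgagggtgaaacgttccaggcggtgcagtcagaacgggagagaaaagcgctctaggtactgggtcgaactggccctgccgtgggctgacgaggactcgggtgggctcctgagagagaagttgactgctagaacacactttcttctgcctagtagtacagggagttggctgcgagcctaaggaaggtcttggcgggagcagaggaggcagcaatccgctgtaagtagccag
Tbxa2r (chr10:81328453-81328752, plus strand): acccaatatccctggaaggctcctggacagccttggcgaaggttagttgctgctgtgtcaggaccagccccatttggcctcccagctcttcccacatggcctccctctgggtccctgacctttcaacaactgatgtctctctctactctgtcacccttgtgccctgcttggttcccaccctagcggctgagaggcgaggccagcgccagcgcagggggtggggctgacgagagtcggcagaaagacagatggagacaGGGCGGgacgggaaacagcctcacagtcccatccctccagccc
Arhgap45 (chr10:80019425-80019724, plus strand): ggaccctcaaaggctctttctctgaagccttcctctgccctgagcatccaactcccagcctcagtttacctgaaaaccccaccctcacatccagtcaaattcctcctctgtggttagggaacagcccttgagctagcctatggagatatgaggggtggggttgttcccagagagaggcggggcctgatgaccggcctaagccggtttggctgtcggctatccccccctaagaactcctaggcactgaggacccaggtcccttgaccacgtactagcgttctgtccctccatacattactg
Hpn (chr7:31110948-31111247, minus strand): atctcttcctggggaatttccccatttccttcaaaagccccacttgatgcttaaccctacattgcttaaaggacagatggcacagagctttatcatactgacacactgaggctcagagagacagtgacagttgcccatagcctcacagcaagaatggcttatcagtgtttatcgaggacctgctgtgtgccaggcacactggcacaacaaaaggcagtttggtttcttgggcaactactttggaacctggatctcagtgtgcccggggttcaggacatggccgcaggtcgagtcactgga
1600014C10Rik (chr7:38183537-38183836, plus strand): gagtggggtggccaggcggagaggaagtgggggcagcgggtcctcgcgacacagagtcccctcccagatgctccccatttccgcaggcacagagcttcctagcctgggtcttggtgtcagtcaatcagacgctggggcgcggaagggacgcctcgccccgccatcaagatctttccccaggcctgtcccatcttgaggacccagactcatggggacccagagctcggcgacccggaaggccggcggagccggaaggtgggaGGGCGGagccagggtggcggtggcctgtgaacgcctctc

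Relative to the transcript start, the summit lay at position -134 at Gfap, -106 at Csrnp1 and -121 at Tbxa2r. At Arhgap45 it lay 123 bp after a start inside the gene, beyond the printed window. It lay at -485 at Hpn and at -270 at 1600014C10Rik, likewise outside the windows. In both, the start used lies inside the listed gene, and so does the summit. The Hpn summit is an edge of its cluster with only 1 neighbour within 10 kb. Csrnp1 held a run of 5 summits, with folds of 2.77, 3.11, 2.77, 3.11 and, in the promoter, 2.59. At Pnpla2, a triglyceride lipase gene, the promoter summit had 2.42 and the next ones in the gene 2.76 and 3.73. In Csrnp1, Pnpla2, Gfap and Tbxa2r the promoter summit was the weakest of its gene, while in Myh14 it had 2.59 beside 2.25 to 3.15 elsewhere in the gene. In Rps6ka1 it was the weakest of its run, with 2.42 beside 2.77 and 3.11. At Il18bp it had 2.94, in a run with 2.27 and 2.94. None of the summits in the 7 promoter windows had a q-value of 0.05 or less. Their q-values ran from 0.0675 at Il18bp to 0.272 at Gfap, Rps6ka1 and Pnpla2.

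Base composition was compared over a larger number of promoters, the 190 windows of 164 genes that lay inside the span of a cluster. Their median G+C content was 60.2% (quartiles 55.8 and 65.0), against 57.0% (48.7 and 65.0) over all 20084 protein-coding windows. Windows within 4 kb of a summit outside clusters had 58.0%. The median number of CpG pairs was 14.5, against 14 over all windows. A GC box, searched as GGGCGG on both strands, was present in 57.9% of windows inside clusters, in 51.0% of those near other summits and in 47.0% of all. The AP-1 motif TGANTCA was present in 10 windows inside clusters (5.26%), against 7.06% of all windows and 6.42% of those near other summits. The cAMP response element TGACGTCA was present in only 8 (4.21%), against 2.30% of all and 2.05% near other summits. The EGR motif GCGNGGGCG, which can share letters with a GC box, was present in 16 (8.42%), against 7.71% of all and 7.84% near other summits. A CTCF core motif was found in 1 window inside clusters and in 15 of all. Windows of 1 gene or of neighbouring genes share sequence context, and a match is a description of letters only.

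Fold enrichment, as deposited by the authors, was read as the ChIP pileup plus 1 divided by the control level plus 1 at the summit. Pileup and control level were solved from it and the deposited p under that form, so the fold is lower than the plain ratio of the fragments and control levels given here. Its median in clustered summits was 2.77 (quartiles 2.43 and 2.94), with a range of 1.56 to 4.76. The 32912 other autosomal summits also had a median of 2.77 (quartiles 2.49 and 2.94). The median clustered summit held 15 fragments (quartiles 14 and 17), and so did the median of the others. A q-value of 0.05 or less was reached by 600 of 2396 clustered summits (25.0%, 95% Wilson interval 23.3 to 26.8, which covers counting error only), against 23.3% of the others (interval 22.9 to 23.8) and 23.4% of all autosomal summits. Clustered summits thus had a median fold equal to that of the others and a share at q 0.05 near the background. Clustered peaks had a median width of 226 bp against 222 bp, and 4.80% of them (interval 4.01 to 5.73) were 400 bp or wider, against 3.05% (2.87 to 3.25).

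The highest fold of a cluster was a median of 1.27 times its lowest, and the ratio stayed under 1.5 in 846 of 966 clusters (87.6%). The narrow range of folds over all summits limits this ratio, which was not computed outside clusters. No summit reached q 0.05 in 376 clusters (38.9%). In 192 clusters (19.9%) 2 or more did, in 29 (3.00%) 3 or more, and in 6 every summit did. These 6 clusters lay at Snrpn, which encodes a small nuclear ribonucleoprotein of an imprinted locus, at Macrod1, Limd2, Sipa1l2 and 1700029H14Rik, and nearest to Flrt2. The 3 summits in Snrpn, at 60183463, 60189206 and 60190061 on chromosome 7, each had a fold of 3.11.

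At the limit of the rule, the clustered summits with the farthest second neighbour were pairs in Zbtb7c and Gse1 at 9997 bp, with folds of 2.94 and 2.43 in Zbtb7c and 2.94 and 2.59 in Gse1. The nearest summits left out lay on chromosome 7, with a second neighbour at 10005 bp and a fold of 2.77, and in Plcb1, at 10011 bp and a fold of 2.77.

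Clustered summits lay in protein-coding genes more often than other summits. Of the clustered summits, 199 (8.31%, interval 7.27 to 9.48) lay no more than 1 kb from either end of a protein-coding gene, against 4.66% of the other autosomal summits (4.44 to 4.89). Elsewhere in protein-coding genes lay 1398 (58.3%, interval 56.4 to 60.3), against 45.4% (44.9 to 46.0). Other listed genes held 5.18% against 7.69%, and sequence outside listed genes 28.2% against 42.2%. The intervals of the clustered and other shares did not overlap in any of these 4 classes. They treat neighbouring summits as independent, which they are not, and no test was made here or below, since the rule used the positions in this list.

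Clustered summits also lay where genes are dense. The median number of protein-coding genes within 100 kb was 3 (quartiles 1 and 7) at clustered summits and 2 (1 and 4) at the others. At like gene number the shares at gene ends were close. With 8 or more genes within 100 kb, 19.7% of 477 clustered summits (16.4 to 23.5) lay at an end, against 20.4% of 2303 others (18.8 to 22.1). With 4 to 7 genes the shares were 9.96% (7.94 to 12.4) and 9.76% (9.04 to 10.5). With 2 or 3 genes they were 5.78% (4.20 to 7.90) and 4.26% (3.85 to 4.71). With 0 or 1 gene, none of 603 clustered summits lay at an end, against 0.675% of the others (0.560 to 0.815). A count of 0 allows a share of up to 0.498% by the limit of 3 counts and 0.633% by the Wilson interval, which overlaps that of the others. The share in the rest of protein-coding genes was higher in clustered summits in each of these classes. It was 67.7% (63.4 to 71.8) against 56.6% (54.5 to 58.6) with 8 or more genes, 66.5% against 59.1% with 4 to 7, 58.3% against 55.6% with 2 or 3, and 41.6% against 33.2% with 0 or 1. With 2 or 3 genes the intervals overlapped (54.4 to 62.1 and 54.5 to 56.6).

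**Figure D2:**
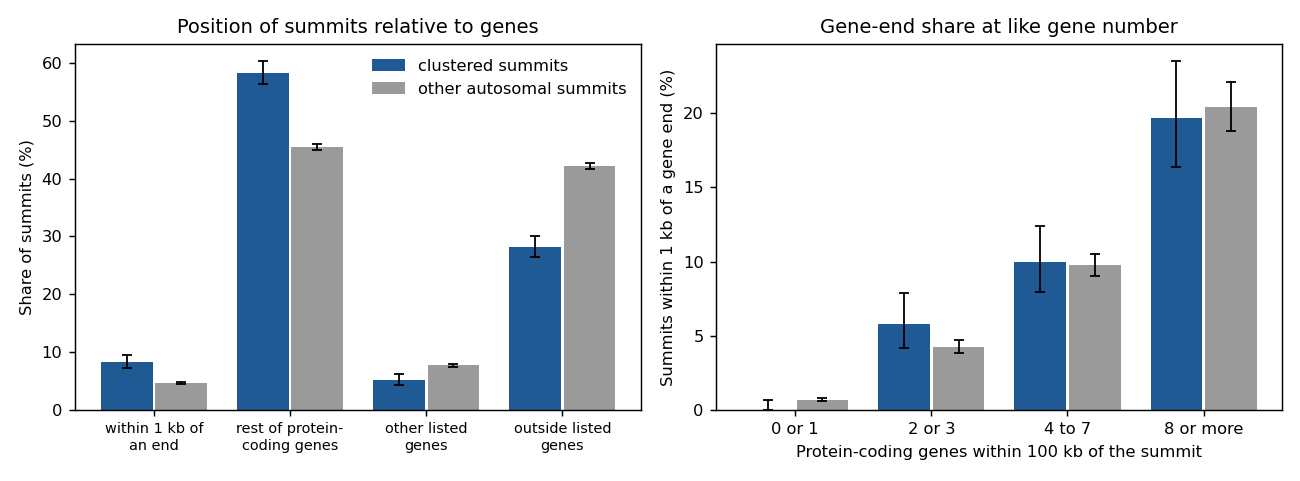
Left, share of summits in 4 position classes; right, share no more than 1 kb from either end of a protein-coding gene, by the number of protein-coding genes within 100 kb; blue bars are clustered and grey bars other autosomal summits, with 95% Wilson intervals. Clustered summits are more often in genes (58.3% against 45.4%), while the gene-end shares are close where gene number is alike (19.7% and 20.4% with 8 or more genes).

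Gene termini, and not gene starts, made up most of the gene-end difference. Among genes whose strand was known, 115 clustered summits (4.80%, interval 4.01 to 5.73) lay within 1 kb of a terminus, where transcription units end, against 1.98% of other summits (1.84 to 2.14). Starts had 56 (2.34%, 1.80 to 3.02) against 2.00% (1.86 to 2.16). At like gene number the order of starts and termini was still seen in clustered summits. With 8 or more genes within 100 kb, 11.9% (9.34 to 15.2) lay at termini and 6.50% (4.62 to 9.08) at starts. The other summits there had 9.94% (8.79 to 11.2) and 8.64% (7.56 to 9.86). With 4 to 7 genes, clustered summits had 5.34% (3.90 to 7.27) at termini and 2.31% (1.43 to 3.72) at starts, against 4.08% and 4.15% for the others (3.61 to 4.61 and 3.67 to 4.68).

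Among whole clusters, 448 (46.4%) lay within 1 protein-coding gene and the 1 kb beside it, 152 (15.7%) touched 2 or more genes, and 264 (27.3%) touched none. A summit within 1 kb of a transcript start of a protein-coding gene was present in 94 clusters (9.73%), and 12 had 2 or more. A cluster holds several summits, so this share has no like background. Per summit, 2.75% of clustered summits (2.17 to 3.49) lay that near a start, against 2.32% of the others (2.16 to 2.49).

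By gene, 731 of 20661 autosomal protein-coding genes (3.54%) held a clustered summit within the gene or 1 kb of it, and 8299 (40.2%) held any summit. Genes with a clustered summit had a median length of 44.0 kb. Genes with summits of which none was clustered had 43.1 kb, and genes without a summit 9.7 kb. Of genes under 10 kb with a summit, 9.38% held a clustered one. The share was 8.76% at 10 to 30 kb, 7.90% at 30 to 100 kb, 8.08% at 100 to 300 kb and 15.2% in the longer genes. Per length, shorter genes held more summits of any kind, 3.91 per 100 kb in genes under 10 kb and 1.4 in genes over 300 kb. Clustered summits numbered 0.556 per 100 kb in genes under 10 kb and 0.0705 in genes over 300 kb, where the 1 kb on either side adds more to short genes. A total of 428 genes held 2 or more clustered summits, and 32 held 5 or more.

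Mad1l1, which encodes a mitotic spindle checkpoint protein, and Zfp423, a zinc finger transcription factor gene, held the most clustered summits, 11 each. In Mad1l1 (chromosome 5, 140008689 to 140321608) they formed 3 clusters, with folds of 2.25 to 3.63. The strongest, at 140025167, stood beside summits of 2.42, 2.76 and 2.59 within the same few kb. In Zfp423 (chromosome 8, 87661810 to 87962053), 4 clusters were spread over the gene with folds of 2.28 to 3.46. Macrod1, an ADP-ribose hydrolase gene, followed with 10 in 3 clusters (2.25 to 3.63), of which 5 lay near its upper-coordinate end, from 7187240 to 7198391 on chromosome 19. Ano1, a calcium-activated chloride channel gene, held 9 in 2 clusters (2.34 to 3.46). In each of these 4 genes most clustered summits did not reach q 0.05, with 3, 1, 3 and 3 that did.

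Some of the other leading genes are known for roles in neurons or, as Otof, at synapses of other cells. Rbfox3, whose product NeuN marks mature neurons, held 8 in 2 clusters, with folds of 2.59, 2.59, 2.42 and 2.71 in the lower one and 3.29, 2.59, 3.29 and 2.42 in the upper one. Dgki, a diacylglycerol kinase gene, held 7 with folds of 2.27 to 3.73. Chd5, a chromatin remodeller gene of the nervous system, held all 7 of its summits in 1 cluster of 20.28 kb. Their folds were 2.77, 2.77, 3.29, 2.76, 3.80, 2.59 and 1.91 in order of position, so that the strongest lay between weak ones. Ttbk1, a tau tubulin kinase gene, held 6, all within 2.59 to 2.94 and none at q 0.05. Otof, a calcium sensor gene of synaptic exocytosis, also held 6 (2.55 to 3.24).

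Other leading genes have general roles. Plec, which encodes the cytoskeletal linker plectin, held 7 summits within 13.74 kb on chromosome 15, with folds of 2.20, 3.98, 2.25, 2.94, 3.11, 2.94 and 2.43. Galns, a lysosomal sulfatase gene, held 7 (2.42 to 3.29) in a run of 8 that began in Aprt, an adenine salvage gene. Klhl29 held 7 (2.59 to 3.29), 3 of them at q 0.05 or less. Zfp469 held 6 (2.42 to 3.38).

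Some of the largest clusters crossed gene boundaries. On chromosome 10, a run of 8 summits from 80004678 to 80032723 covered Abca7, a lipid transporter gene, and Arhgap45. Its folds were 2.42, 3.73, 3.11 and 3.63 in Abca7, the last at 80015620 just beyond the gene's upper end, then 4.15 at an internal transcript start of Arhgap45, 2.59 and 2.59 further in, and 3.46 past it. In all, 5 of the 8 reached q 0.05. On the same chromosome, 7 summits in 15.64 kb covered Pip5k1c, a phosphoinositide kinase gene, with 3.11, Cactin, a splicing-related gene, with 2.11, 3.46 and 3.46, and Tbxa2r with 2.77, 2.94 and 3.11. The lowest fold of the latter 3 is the summit in the printed promoter. On chromosome 11, Tbc1d9b held 6 and Mrnip 2 of 8 summits (2.42 to 3.29). The run at Hpn on chromosome 7 had 7 summits, 5 of them outside listed genes, with the strongest, 3.63, inside Hpn.

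**Figure D3:**
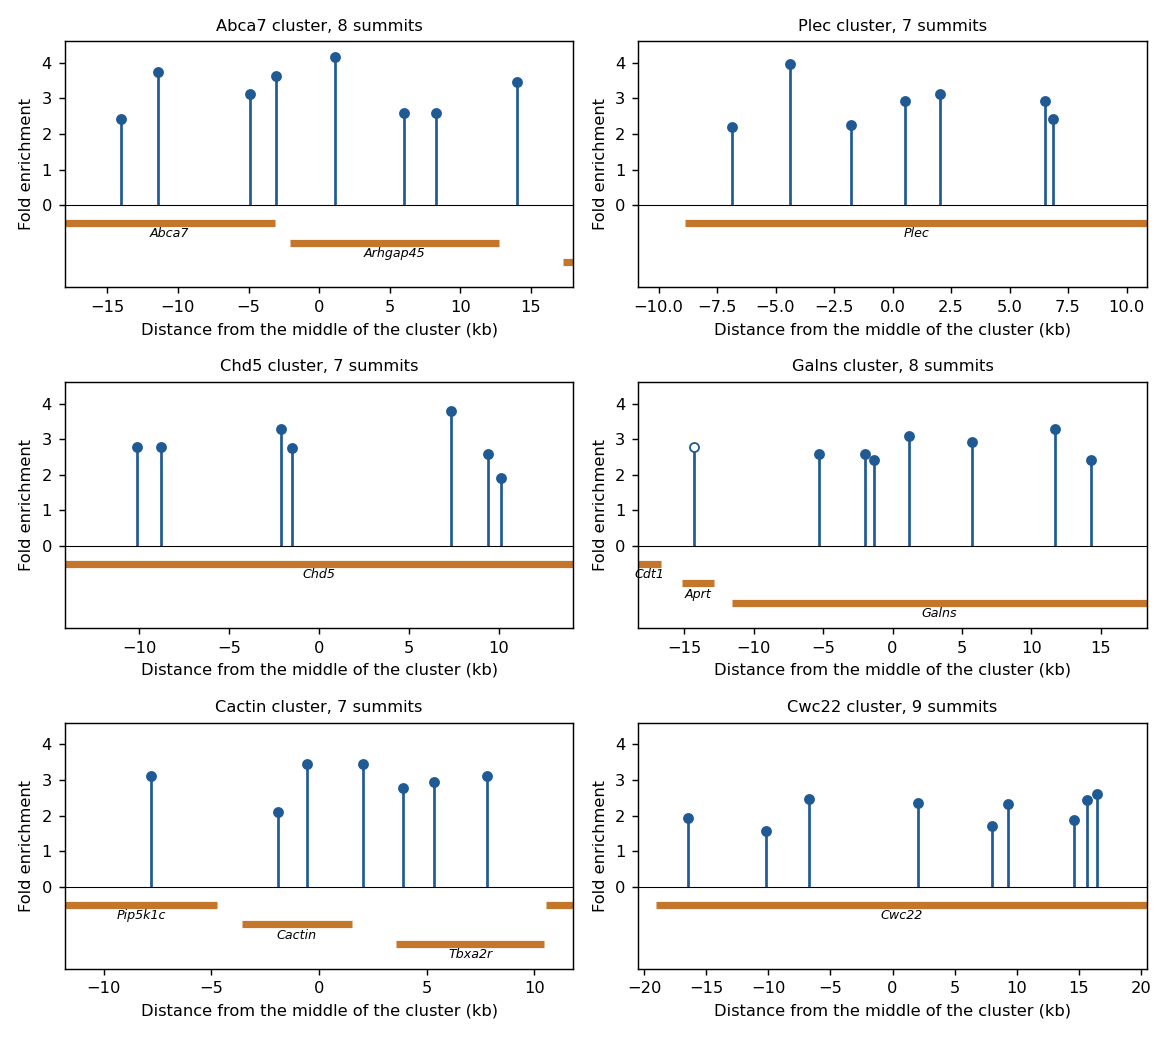
Fold enrichment (linear) at each summit of 6 clusters against distance from the cluster's middle in kb; filled circles are clustered summits, the open circle an edge summit with 1 neighbour, and orange bars protein-coding genes. The fold of 4.15 at Arhgap45 lies in a run that also holds 3.73, 3.63 and 3.46, and 3.98 in Plec stands beside folds of 2.20 to 3.11. The 9 summits in Cwc22 stay at or below 2.62.

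The run of 8 that spanned the most, 52.38 kb on chromosome 2 from 167818755 to 167871134, touched no protein-coding gene and lay nearest to Ptpn1, a tyrosine phosphatase gene. Of its 8 summits, 6 lay in other listed genes, and their folds ran from 2.25 to 3.46 with 1 at q 0.05 or less. The densest cluster of 4 or more summits had 4 within 3.12 kb on the same chromosome, beside and in Ptgis, which encodes prostacyclin synthase, with folds of 2.76, 2.42, 2.35 and 2.77. None of these 4 reached q 0.05. Also among the densest were 4 summits in 5.83 kb in Fubp3 (3.11, 2.76, 3.29 and 2.59), a gene of a single-strand DNA binding protein, and 4 in 5.57 kb outside listed genes, nearest to Mfsd9 (3.46, 2.94, 3.46 and 2.28).

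The clusters with the most summits include loci with a raised control level. The most common control level of the list was 4.78 fragments, and 32 clustered summits (1.34%, interval 0.948 to 1.88) had more than 2 times that, against 0.182% of the others. Cwc22, a splicing factor gene on chromosome 2, held the largest cluster, 9 summits from 77883743 to 77916706. Their control levels were 14.99 to 25.85 and their folds 1.56 to 2.62, with 38 to 46 fragments. A pair of clusters of 4 summits each, beyond Cwc22 and outside listed genes at 77975333 to 77980859 and 78020928 to 78026212, had median control levels of 16.75 and 14.03. The 8 summits at 1600014C10Rik on chromosome 7 had control levels of 10.38 to 44.59 and folds of 1.56 to 3.52, with 39 to 80 fragments. In these 4 clusters every summit had a raised control level, and 10 other clusters had at least 1 such summit. The part of the control level in these clusters was not tested. Without entries of raised control, 2354 clustered summits and 953 clusters were left, and Cwc22 held none.

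**Figure D4:**
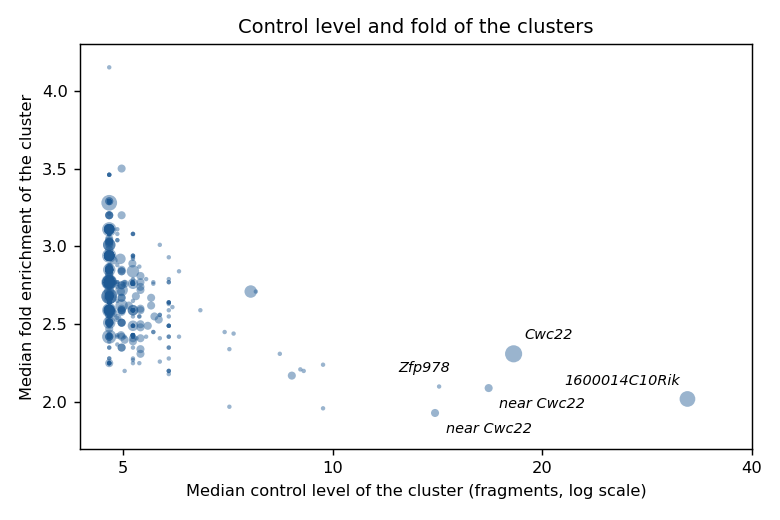
Median fold enrichment of each of the 966 clusters against its median control level in fragments (log scale); larger circles hold more summits. Most clusters sit near the common level of 4.78, and those in or near Cwc22 and at 1600014C10Rik lie at 14.03 or more with median folds of 1.93 to 2.31.

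The strongest clustered summit, at Etnk2, an ethanolamine kinase gene on chromosome 1, had a fold of 4.76 and was also the widest clustered peak, at 770 bp. Its neighbours, at 133361878 and 133365113, had folds of 2.55 and 3.04. Folds of 4.50 were found in Kdm4b, a histone demethylase gene, in Rsph6a, in a noncoding gene 1866 bp from Cdh26, and outside listed genes on chromosome 4 at 131509771. The last had a second strong summit of 4.15 at 131510444. Poc1a, a centriole protein gene, had 4.32 beside 2.77 and 2.94. Diras1, a Ras-family GTPase gene, D11Wsu47e and a noncoding gene 12754 bp from Spag9 had 4.15, as did Arhgap45. Each of these 10 summits had neighbours of fold 3.46 or less apart from the pair on chromosome 4 and the Arhgap45 run. Other wide clustered peaks lay in Lmnb2, a lamin gene (701 bp, fold 2.92), where Hdgfl2 and Plin4 meet (685 bp, 3.63), in Cacna1h, a T-type calcium channel gene (677 bp, 2.77), and in 1600014C10Rik (651 bp, 1.73).

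Gene lists of the tissue are given by how many of their members held a clustered summit, beside 3.54% of all protein-coding genes and 8.81% of those with any summit. Of 24 voltage-gated channel genes, 22 had a summit and 4 a clustered one. Among them were the potassium channel gene Kcnt1 (4 summits, 2.59 to 3.29) and the calcium channel genes Cacna1h (3, 2.41 to 3.29) and Cacna1i. Of 22 synaptic scaffold genes on autosomes, 19 had a summit and 4 a clustered one. Bsn, which encodes the presynaptic scaffold bassoon, held 4 with folds of 2.77, 3.40, 3.98 and 3.59, the last 3 at q 0.05 or less, while Erc2 (2.14 to 2.94), Magi1 (2.42 to 2.77) and Agap2, in a cluster of 3 summits of which 1 had a raised control level, made up the rest. All 26 axon guidance and Eph genes had a summit, and 4 had a clustered one, among them Ephb2, an ephrin receptor gene (4 summits, 2.77 to 3.46), Unc5b, a netrin receptor gene (4, 2.45 to 3.11), and Unc5d (1, of 3.63). These lists hold long genes, with median lengths of 153.0, 201.5 and 193.0 kb against 17.5 kb for all genes.

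All 30 long neuronal adhesion and signalling genes, with a median length of 1162.1 kb, held summits, and 3 held clustered ones. Ctnna3, an alpha-catenin gene, held 3 (2.59 to 3.11) among 17 summits, Cdh13, the T-cadherin gene, 1 of 22, and Csmd1 1 of 22. Of 23 glutamate receptor genes, 21 had a summit and only Grin2d a clustered one, of 2.77. Of calcium and cAMP signalling genes, 2 of 25 held clustered summits, Prkce, a protein kinase C gene (2.42 to 3.11), and Crtc1 (2.42). Pan-neuronal genes had 2 of 16, Rbfox3 and the neuronal tubulin gene Tubb3 (1 summit, 2.77). Inhibitory neuron genes had 1 of 17 (5.88%), Erbb4, a neuregulin receptor gene (2.59 to 2.92). Cortical excitatory genes had none of 18, although 11 had a summit.

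Activity-regulated genes are given beside the same 3.54% of all genes, in short lists where a single gene sets the share. Of 24 immediate early genes 8 had a summit, and 1 (4.17%) had a clustered one, the Fos-related transcription factor gene Fosl1 (2.77). That is 12.5% of those with a summit, against 8.81% of all genes with one. Of 17 late activity-regulated genes 5 had a summit and none a clustered one. The summit of Fos, the highest fold of the list, had no other within 10 kb, and the nearest lay 43348 bp away. That of Npas4 had its nearest neighbour at 14422 bp and that of Bdnf at 48813 bp. Top2b, the gene of the precipitated enzyme, held 3 summits in a run, of which the middle one, at 16385115 on chromosome 14 with a fold of 2.59, counted as clustered. The 2 summits of Top2a lay 11433 bp apart and were not clustered.

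Markers of other cell types are given beside the same 3.54% of all genes, in lists where a single gene sets the share. Astrocyte genes had 1 of 12 (8.33%), Gfap. Its run of 5 summits started at 102888092 near the gene's lower end, with a fold of 3.46, and had 2.30 in the printed promoter and 2.77 at 102897714, further upstream. Oligodendrocyte lineage genes had 1 of 11 (9.09%), Cspg4 (2.42 to 2.94), and microglial and endothelial genes and neural progenitor genes had none of 14 each. Liver and muscle genes, from other tissues, had 2 of 18, the myoglobin gene Mb (2.76 to 3.11) and Tnnt3 (2.25). Housekeeping genes had none of 16. Of 22 topoisomerase, cohesin and break repair genes, Top2b alone held a clustered summit.

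Families of short or tandem genes are given for comparison. Cytosolic ribosomal protein genes had 1 of 81, Rpl13a (2.77). Histone genes had none of 79, Hox genes none of 39 and clustered protocadherins none of 57, although 36 of the last held summits. None of 1104 olfactory receptor genes held one, which allows a share of up to 0.272%, and 50 held any summit. Zinc finger genes named Zfp had 12 of 388, led by Zfp423, Zfp469 and Zfp710 (3.08 to 3.46, with all 3 summits at q 0.05 or less).

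The share of summits that were clustered differed among autosomes. It was highest on chromosomes 7 (9.22%, interval 8.07 to 10.5), 17 (9.07%, 7.69 to 10.7) and 11 (8.93%, 7.81 to 10.2). It was lowest on chromosomes 3 (2.99%, 2.34 to 3.81) and 18 (3.77%, 2.82 to 5.02), against 6.79% over all. Chromosomes 7, 17 and 11 had 14.3, 11.5 and 13.6 protein-coding genes per Mb, and chromosomes 3 and 18 had 6.27 and 5.86. Other chromosomes did not keep this order. Chromosome 1 also had 6.27 genes per Mb but 5.65% clustered, and chromosome 12 had 5.83 and 5.59%. Chromosome 19 had 12.1 genes per Mb and 7.48% clustered. The part of gene density in these shares was not tested. The density of summits of any kind was lowest on chromosome 14, at 11.9 per Mb, and highest on chromosome 11, at 18.4. Around clustered summits the surroundings were also denser, with a median of 22 summits within 500 kb beyond the nearest 10 kb (quartiles 15 and 29), against 15 (11 and 21) around the others. The part of this regional density in the clusters was not tested.

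**Figure D5:**
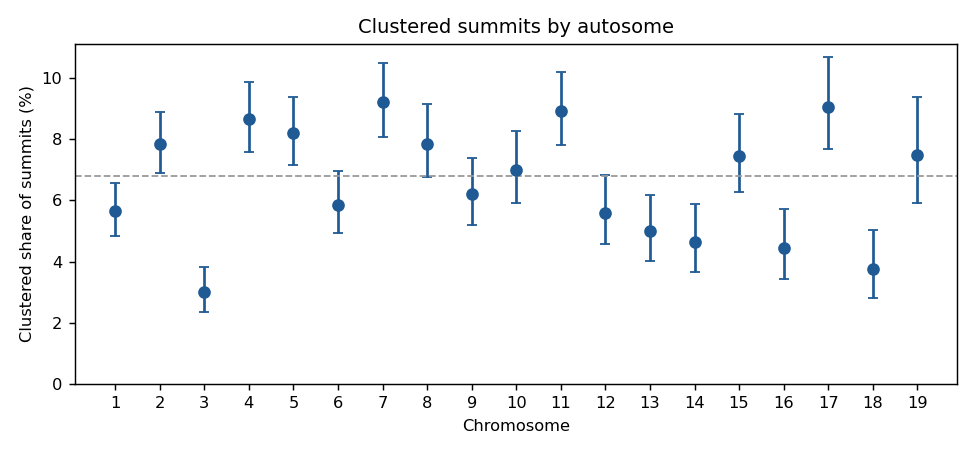
Share of autosomal summits that were clustered (%), by chromosome, with 95% Wilson intervals; the dashed line is the share over all autosomes, 6.79%. Chromosomes 7, 17 and 11 lie highest, at 8.93% to 9.22%, and chromosome 3 lowest, at 2.99%.

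The 7 entries set apart covered the rRNA repeat on chromosome 17 from 39843108 to 39848722. Their folds were 1.44 to 2.08 over control levels of 271.49 to 526.71, and their pileups of 425 to 924 fragments were above those of every clustered summit, of which the highest held 80.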

How the data were processed

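A single narrowPeak list was used. It is labelled as pooled and has no header and no value for any library. FastQC, Trimmomatic, BWA, SAMtools and MACS2, and builds mm10 and GRCm38.p6, are named in the submitters' processing notes. Not given in the sources used here are caller settings, treatment of duplicates and the libraries that entered the pool. Fold enrichment (a linear ratio at the summit), −log10 p and −log10 q are the authors' deposited values, identified by column order and MACS2 convention. The deposited display score was not analysed. Depth per library is unknown.

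Summit positions were turned into 1-based coordinates. Pileup and control level were solved from the deposited fold and p, within 0.002 of −log10 p, for 35536 of 35539 peaks. Genes came from RefSeq on GRCm38.p6. Strand and promoter sequence came from the RefSeq promoter table, which held 16456 of 20661 autosomal protein-coding genes (79.6%). Gene start and terminus were therefore separated in these genes only, as an addition to the planned count of either end. Intervals are 95% Wilson intervals, and the limit beside a count of 0 is 3 counts of the total. They cover counting error only and treat summits as independent, which neighbours are not. No test was run, because the rule that chose the clustered summits used positions of the same list. Calculations used Python 3.11.15, numpy 2.4.6, pandas 2.3.3 and scipy 1.17.1, and were tested on simulated data.

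The clustered summits and the gene lists were chosen with earlier results of these data known. Named by rule were the 15 protein-coding genes with most clustered summits, the 10 clusters with most summits, the 5 densest of 4 or more summits, the 10 clustered summits of highest fold, the 5 widest, up to 3 genes of each list, and Fos, Npas4, Bdnf, Top2b and Top2a. Settings tried were neighbour distances of 5 and 20 kb, merging within 500 bp, stricter lists, high control left out, a stricter grouping, other end windows, ends of all genes and whole intervals. Entries on X and on scaffolds were not compared, and some genes that the rule names are not reported here.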

Additional observations from a re-analysis of the deposited data

How the results depend on the processing

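The number of clustered summits followed the neighbour distance and the list used. With 5 kb in place of 10 kb there were 733 in 338 clusters, 9.55% of them at gene ends and 61.3% in the rest of protein-coding genes. With 20 kb there were 6433 in 2238 clusters, with 55.7% in protein-coding genes. Only entries of q 0.05 or less gave 61 in 24 clusters, 16.4% at ends and 68.9% in genes, with a median fold of 3.11, below the 3.28 of the other summits, whereas the medians were equal in the whole list. Only folds at or above the median gave 469 in 206 clusters, 60.3% in genes, with a median fold of 2.94, as in the others. Asking for 3 summits inside 1 window of 10 kb left 584 clusters. A gene-end window of 500 bp gave 4.51% at ends and 61.2% in genes (others 2.53% and 46.8%). One of 5 kb gave 31.2% and 41.4% (others 17% and 37.5%), a smaller gap in genes. Ends of all listed genes gave 11.9% (others 8.27%). Starts alone gave 2.34% and termini alone 4.80%, both chosen after the data were seen. In each of the 7 changes of list or grouping, the other autosomal summits had lower shares, 4.33% to 5.15% at ends and 44.2% to 46.1% in genes. Of 105 counts of clustered summits in the 15 leading genes under those changes, 42 moved by more than 1.5 times. Since 25.0% of clustered summits reached q 0.05, most rest on a lenient peak list, and depth per library is unknown. No paired analysis was possible because the list pools libraries and carries no replicate numbers.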

Other observations

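With the list held to q 0.05 or less, 24 clusters were left. The largest lay at 1600014C10Rik (7 summits, folds 1.73 to 3.52) and in Cwc22 (5 summits, 2.31 to 2.62). These are loci of raised control, with levels of up to 44.59 and 18.19. Several of the smaller clusters lay in genes with known roles. Bsn had 3 summits (3.40, 3.98 and 3.59). Npas2, a clock-related transcription factor gene, had 3 (3.29, 3.11 and 3.29), and Agap3, which encodes a GTPase-activating protein of synapses, had 3 (3.29, 3.98 and 3.11). Snrpn and Kcnq1, which both lie in imprinted regions, had 3 each, with folds of 3.11, 3.11 and 3.11 in Snrpn and 2.98, 3.11 and 3.11 in Kcnq1. A run outside listed genes nearest to Stx18 had 3 summits within 2.37 kb (3.46, 3.29 and 3.11). These genes were named after their values were seen, and the cause of the clusters was not tested.

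Outside the autosomes, none of the 190 summits on chromosome X had 2 others within 10 kb, which allows a share of up to 1.58%. On a single unplaced scaffold, 19 of 21 entries did, with a median control level of 102.11 and a median fold of 1.60.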
